A study of Mus musculus with 12 samples.

Results

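The cytosolic ribosomal protein genes were taken as all probe sets that the platform annotation gives to 1 gene whose symbol begins with Rpl or Rps followed by a digit, an a or a p. Rps6k kinases and pseudogenes were left out. This gave 48 genes, read by 100 probe sets, of 12394 named genes and 22690 probe sets on the array. Current mouse annotation holds 89 protein-coding genes that meet the same rule. The remaining genes were read only by probe sets that the annotation gives to several genes, or by none. A probe set is a group of short probes that together report on 1 transcript. Of the members, 46 genes with 85 probe sets had a mean signal of at least 100 over the 12 arrays and were tested. Rpl14 and Rpl39l, at mean signals of 56.8 and 35.6, were not. The tested genes were 24 of the large and 22 of the small subunit, and each was represented by its brightest probe set.

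Total RNA of heart was measured on Affymetrix MOE430A arrays in 4 groups of 3 arrays, which were control and mdx mice at 8 weeks and control and mdx mice at 10.5 months. The mdx mouse lacks dystrophin in its muscles through a mutated Dmd gene and is the usual mouse model of Duchenne muscular dystrophy. The labels give neither strain nor sex, treatment, or the number of animals behind an array, so p-values measure the spread between these arrays, which may be in part technical. The question was how the message for the ribosome's own proteins differs between mdx and control heart, young and old, and how far that depends on how the arrays are brought to a common scale.

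Each cytosolic ribosome holds 1 copy of nearly every ribosomal protein, and the genes are among the most active of the cell. Their mRNAs start with a C followed by a run of pyrimidines, the 5' terminal oligopyrimidine or TOP motif, through which mTOR signalling sets their translation. Heart muscle makes more ribosomes when it grows. A few genes have tissue-restricted copies, of which Rpl3l, a paralogue of Rpl3 used in heart and skeletal muscle, is the best known in this tissue.

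The promoter windows of 5 genes on which the results below turn are shown because they differ in this start region. They are from RefSeq (GRCm38.p6), 5' to 3' on the gene's strand, with 70 bases before the annotated start and the first 30 bases of the transcript. Capitals mark the longest run of C or T within 20 bases of the start, or both runs where 2 are equally long. Rpl35 lies at chr2:39005102-39005201 on the minus strand, Rps27l at chr9:66946016-66946115 on the plus strand, Rps19 at chr7:24884522-24884621 on the plus strand, Rpl39 at chrX:37085193-37085292 on the minus strand and Rpl3l at chr17:24727756-24727855 on the plus strand.
Rpl35: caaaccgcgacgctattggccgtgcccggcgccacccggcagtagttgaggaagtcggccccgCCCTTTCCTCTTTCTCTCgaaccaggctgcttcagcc
Rps27l: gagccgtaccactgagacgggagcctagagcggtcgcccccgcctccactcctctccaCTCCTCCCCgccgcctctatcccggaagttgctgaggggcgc
Rps19: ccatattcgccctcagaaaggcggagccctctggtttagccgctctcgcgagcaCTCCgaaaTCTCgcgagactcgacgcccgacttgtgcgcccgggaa
Rpl39: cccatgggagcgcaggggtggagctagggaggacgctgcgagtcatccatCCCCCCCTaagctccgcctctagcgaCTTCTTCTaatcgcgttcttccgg
Rpl3l: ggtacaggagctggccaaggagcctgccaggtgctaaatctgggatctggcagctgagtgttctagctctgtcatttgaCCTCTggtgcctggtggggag
In Rpl35 the run of 18 pyrimidines spans the annotated start. In Rps27l a run of 9 lies before it. Within 20 bases of the start Rpl39 has 2 runs of 8, one before the start and one inside the transcript. The first is cut by the edge of those 20 bases, as the base before it is also a T. In Rps19 and Rpl3l the longest runs were 4 and 5 bases. RefSeq starts can lie some bases away from the start used in heart, so a short run here does not show that an mRNA lacks the motif.

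Promoters of 300 bases (250 before to 50 after the start) were matched for 42 of the 48 members. A run of at least 8 C or T within 20 bases of the start stood in 45.2% of them and in 15.9% of 27025 promoters of the same length. CCGGAAG on either strand, the core bound by ETS factors, stood in 50% of member promoters against 9.14% of all, and its reverse form CTTCCGG can share bases with such a run. TATAAA on either strand stood in 14.3% against 14.2%. These matches are letters in a window and not sites. Members with and without the long run had like medians in the comparison of mdx with control hearts at 10.5 months described below, at log2 0.29 for 18 genes and 0.36 for 22 (0.15 and 0.24 after quantile normalization).

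Signals were deposited on a linear scale and are given here after each array was scaled to a trimmed mean of 500. On 4 arrays the brightest signals reached further than on the other arrays, with a 99th percentile of 40770 to 53154 deposited units against 27563 to 32810. They were control replicate 2 and mdx replicates 1 and 2 at 8 weeks, and mdx replicate 3 at 10.5 months. The last also had the highest 3' to 5' ratio of the actin control probe sets, 1.44 against at most 1.289 elsewhere. Ribosomal protein transcripts are bright, with a mean signal of at least 5000 for 32 of the 46 genes against 617 of 14932 tested probe sets. Results are given both as scaled and after quantile normalization, which gives every array the same distribution of signal. Dmd was lower in mdx hearts at both ages (log2 -1.42 and -1.63, limma, adjusted p = 0.00596 and 0.0120). The comparisons share groups, so each is given with its own values. A keyword of the records names extraocular muscle, yet all 10 ventricular myocyte markers were above the minimum of 100, and 2 of 11 measured genes of fast and extraocular muscle were. These 2 were Ckm at a mean signal of 24483, which heart also makes, and Atp2a1 at 266, and the other 9 lay between 15.8 (Actn3) and 80.3 (Mylpf).

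At 8 weeks the level of the family differed as much between arrays of a group as between groups. On each array the log2 value of each gene was set against its mean over the 12 arrays, and the median over the 46 genes was taken. As scaled, the medians were -0.14, 0.22 and -0.12 in 8-week controls and 0.41, 0.19 and -0.27 in 8-week mdx hearts. In controls at 10.5 months they were -0.27, -0.17 and -0.22, and in mdx hearts at 10.5 months -0.13, 0.05 and 0.42. The 4 high values, 0.19 to 0.42, belong to the 4 arrays with the wide signal range. The 617 probe sets with a mean signal of at least 5000 moved in the same way, from -0.30 on mdx replicate 3 to 0.56 on mdx replicate 1 at 8 weeks.

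Quantile normalization took away most of this spread. The SD of the array medians within groups fell from 0.248 to 0.080. The 8-week medians then lay between -0.08 and 0.03 in both genotypes. At 10.5 months the controls lay at -0.06, -0.06 and -0.05 and the mdx hearts at -0.02, 0.11 and 0.28, so the mdx arrays were above the controls on both scales, while the bright probe sets lay within 0.03 of 0 on all 12 arrays. On mdx replicate 3 at 10.5 months, 39 of 46 genes were above their own mean after quantile normalization, and 42 as scaled. In tissue RNA, more message per cell and a larger share of cells rich in these messages cannot be told apart.

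**Figure D1:**
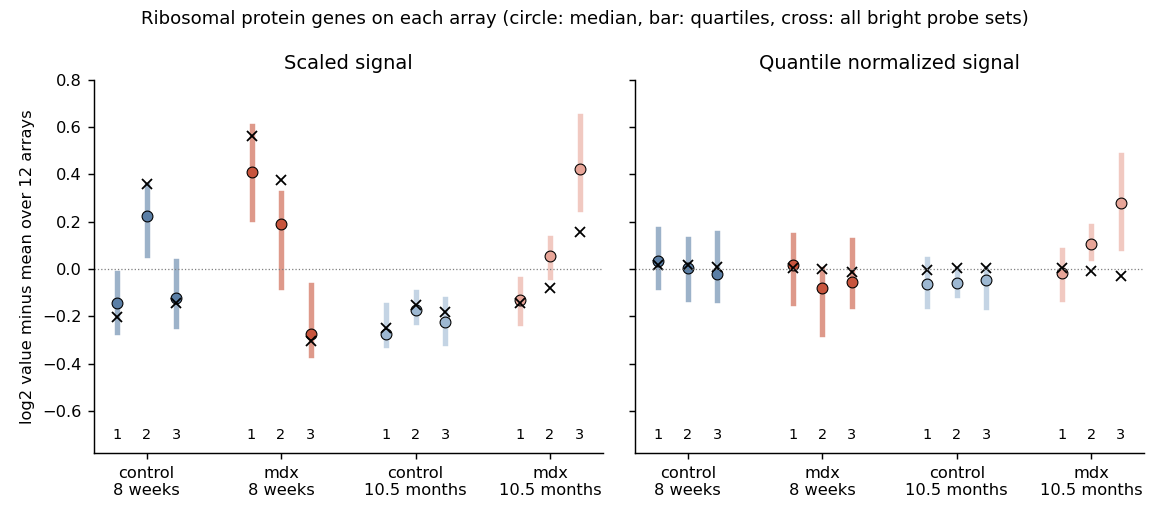
Median (circle) and quartiles (bar) of the log2 value of 46 ribosomal protein genes on each of the 12 arrays, minus each gene's mean over the arrays, as scaled (left) and quantile normalized (right), with the replicate number below and the median of 617 bright probe sets as a cross. As scaled, the circles follow the crosses at 8 weeks, and after quantile normalization mdx replicate 3 at 10.5 months stays highest at 0.28.

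In young hearts 1 ribosomal protein gene passed the test. Rpl39, whose small protein lines the exit tunnel of the large subunit, was higher in mdx hearts at 8 weeks, and no other member did. Rpl39 gave signals of 585, 718 and 590 in the controls against 982, 942 and 900 in mdx hearts. All mdx arrays lay above all control arrays. Rpl39 rose by 0.56 ± 0.14 on the log2 scale (standard error, 3 arrays against 3, limma, adjusted p = 0.0498), a 1.47-fold change, and by 0.63 after quantile normalization (adjusted p = 0.0328). The call sat at the threshold, and Rpl39 was read by 1 probe set (mean signal 652), with no other to set beside it. The difference was positive under all 25 alternatives, from 0.49 to 0.65, but it passed under only 4, with adjusted p from 0.0328 to 0.217, and leaving out any single array other than control replicate 2 at 8 weeks ended it. Over all 14932 tested probe sets 2.30% were called in this comparison (3.04% after quantile normalization), and of the 85 member probe sets 1 was.

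The family's direction at 8 weeks depended on the scale. The median log2 difference over 46 genes was 0.12 as scaled, with 33 genes higher in mdx hearts, and -0.06 after quantile normalization, with 19 higher. The medians over all tested probe sets were -0.01 and -0.02. As scaled, the family's median was -0.05 without mdx replicate 1, 0.24 without control replicate 2, 0.07 without control replicate 3 and 0.33 without mdx replicate 3. Without the 4 arrays of wide range it was -0.16, resting on 1 mdx array. Groups that did not overlap, with mdx higher, were found for 5 of 85 member probe sets (5.88%) against 9.51% of all probe sets. After quantile normalization there were 12 (14.1%) against 9.82% with mdx higher, and 10 (11.8%) against 10.8% with mdx lower.

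Next to Rpl39, the smallest p-values at 8 weeks were those of 2 proteins of the small subunit's head. Rps20 gave 5229, 6118 and 4527 in the controls against 7776, 9409 and 6261 in mdx hearts, with no overlap (0.55 ± 0.19, adjusted p = 0.151). Rps10, which is marked with ubiquitin when ribosomes stall, gave 9297, 14097 and 9677 in the controls against 19140, 18903 and 11793 in mdx hearts, and its groups overlapped (0.58 ± 0.22, adjusted p = 0.190). The other probe sets of both genes gave smaller differences, at 0.27 and 0.08 for Rps20 and between -0.18 and 0.31 for Rps10. In the other direction stood Rpl3l (-0.30 ± 0.15, adjusted p = 0.336), Rpl8, part of the region around the catalytic centre (-0.30 ± 0.18, adjusted p = 0.412), and Rps6, the substrate of S6 kinase (-0.35 ± 0.23, adjusted p = 0.443). Rps6 was read only by a dim probe set, from 59.3 on mdx replicate 1 to 168 on control replicate 2, and its difference turned to 0.10 without the arrays of wide range.

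In older hearts most of the family stood higher in mdx than in control, by a little, and no single gene passed the test. As scaled, 41 of 46 genes were higher with a median of 0.33, and after quantile normalization 38 of 46 with a median of 0.16. The medians over all tested probe sets were -0.03 and -0.01 (44.5% and 49.1% of them above 0). The 617 bright probe sets had medians of 0.19 as scaled and -0.01 after quantile normalization, and the 32 ribosomal protein genes of that brightness 0.36 and 0.16. No member was called, against 0.0469% of all probe sets (7). At an unadjusted p below 0.05 there were 20 of 85 member probe sets, all higher, against 2.68% of all tested in that direction. After quantile normalization there were 22, again all higher, against 3.60%.

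For 36 of 85 member probe sets (42.4%) all 3 mdx arrays lay above all 3 controls, against 7.51% of all probe sets. After quantile normalization these were 29 (34.1%) against 8.32%. Probe sets of the family share arrays and often a transcript, so these shares are a description. The size depended on 1 array. Without mdx replicate 3 the median was 0.18 as scaled, with 39 of 46 genes higher, and 0.11 after quantile normalization, with 36 higher. That array also carried the wide signal range and the highest actin 3' to 5' ratio, whose part in the result was not tested. With the wide range as a term in the fit the median was 0.16.

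**Figure D2:**
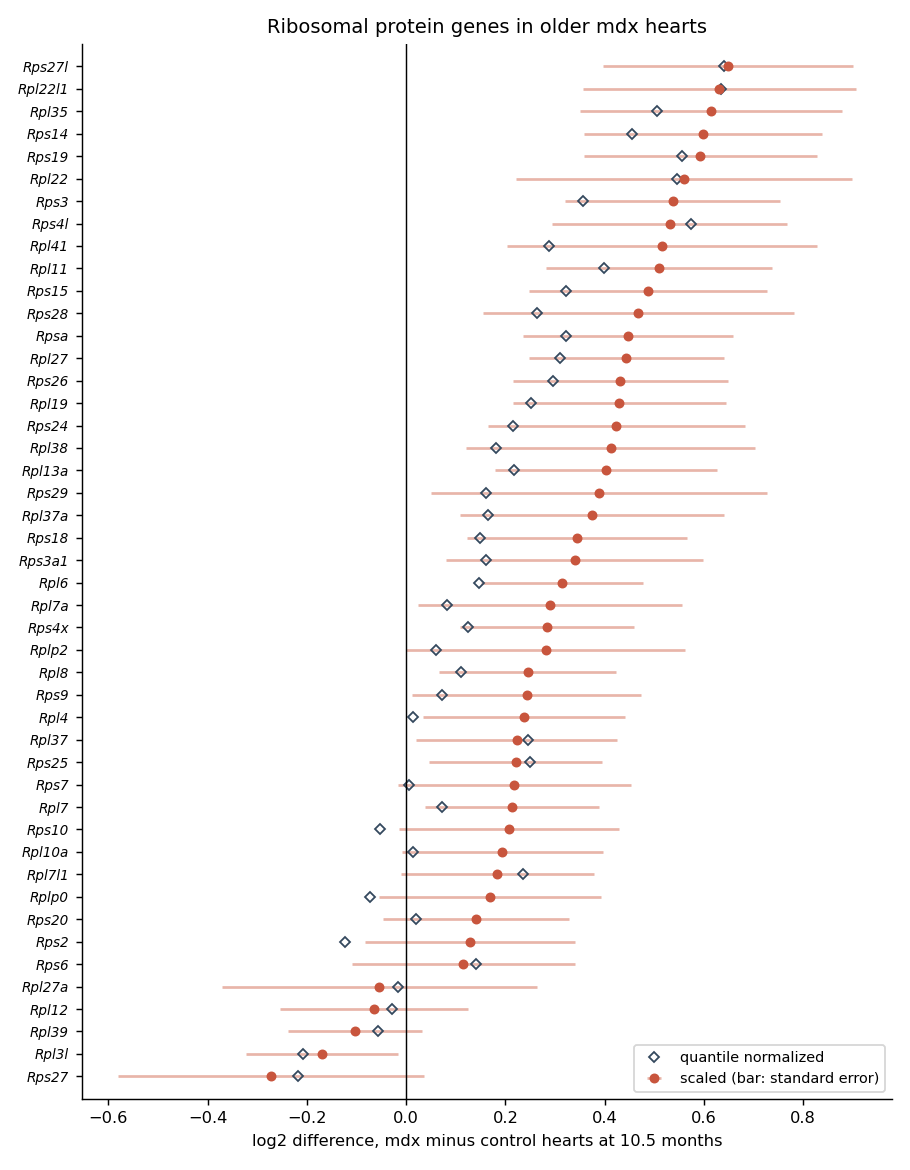
Log2 difference of each of 46 ribosomal protein genes between mdx and control hearts at 10.5 months (3 arrays each), as scaled with its standard error (filled circle and bar) and quantile normalized (open diamond), ordered by the scaled value. Most genes lie to the right of 0, from -0.27 for Rps27 to 0.65 for Rps27l, and most diamonds lie left of their circles.

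The largest differences at 10.5 months were those of Rps27l, a paralogue of Rps27 that p53 induces, and Rpl22l1, a paralogue of the RNA-binding protein Rpl22. Rps27l gave 2714, 2892 and 1774 in the controls against 3364, 3313 and 4891 in mdx hearts, with no overlap (0.65 ± 0.25, adjusted p = 0.666). Its other probe sets gave 0.48 and 0.57. Rpl22l1 gave 1527, 1792.5 and 1302 in the controls against 1772.5, 1915 and 3976 in mdx hearts (0.63 ± 0.28, adjusted p = 0.666). Here the groups overlapped, and mdx replicate 3 stood far above the other arrays.

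Among canonical members the smallest p-values were in the small subunit. Rps19, the protein most often mutated in Diamond-Blackfan anaemia, gave 3097, 3200 and 2666 in the controls against 3437, 4580 and 5824 in mdx hearts (0.59 ± 0.24, adjusted p = 0.666). Rps14, the gene behind the anaemia of the 5q- syndrome, gave 7641, 8327 and 7893 in the controls against 9603, 9941 and 18318 in mdx hearts (0.60 ± 0.24, adjusted p = 0.666), and its other probe set 0.67. Rps3, which sits where the mRNA enters, gave 6896, 7223 and 7771 in the controls against 8506, 9122 and 15291.5 in mdx hearts (0.54 ± 0.22, adjusted p = 0.666). In all 3 genes every mdx array lay above every control, and mdx replicate 3 was the highest array. Without that array Rps19 was at 0.41 and Rps14 at 0.30.

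In the large subunit Rpl35, which borders the exit tunnel, gave 4375, 5094 and 4136 in the controls against 5165, 5931 and 10874 in mdx hearts (0.62 ± 0.26, adjusted p = 0.666). Of its 6 tested probe sets 5 lay between 0.45 and 0.67, and the dim one, with a mean signal of 123, at -0.21. The members that stood lowest were Rps27 (-0.27 ± 0.31, adjusted p = 0.880), read only by a dim probe set with overlapping groups, Rpl3l (-0.17 ± 0.15, adjusted p = 0.845) and Rpl39 (-0.10 ± 0.14, adjusted p = 0.890). The subunits were alike, with medians of 0.29 over 24 large-subunit and 0.37 over 22 small-subunit genes, or 0.16 and 0.19 after quantile normalization.

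The difference of the mdx effect between the ages had a median of 0.23 as scaled (35 of 46 genes above 0) and 0.28 after quantile normalization (38 of 46). No test was run on the family as a whole, and with array weights the median was 0.06, with 27 of 46 genes above 0. As scaled it was 0.04 without mdx replicate 3 at 8 weeks, 0.06 without mdx replicate 3 at 10.5 months, 0.10 without control replicate 2 at 8 weeks, 0.38 without mdx replicate 1 at 10.5 months and 0.42 without mdx replicate 1 at 8 weeks. No member was called, against 0.154% of all probe sets (23). At an unadjusted p below 0.05 there were 7 member probe sets (8.24%) against 12.1% of all. The smallest p-values above 0 were those of Rps4l, a gene like Rps4x (0.89 ± 0.34, adjusted p = 0.314), Rps19 (0.81 ± 0.33, adjusted p = 0.353) and Rps3 (0.70 ± 0.31, adjusted p = 0.391).

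Below 0 stood Rpl39, with the smallest p-value of the family (-0.66 ± 0.19, adjusted p = 0.190). Rps20 (-0.41 ± 0.27, adjusted p = 0.567) and Rps10 (-0.38 ± 0.31, adjusted p = 0.670) followed. As scaled, the mdx arrays of Rpl39 lay above all controls at 8 weeks and below all controls at 10.5 months. After quantile normalization the groups at 10.5 months overlapped, at 498.7, 504.3 and 563.5 in the controls against 492.2, 491.4 and 516.8 in mdx hearts.

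**Figure D3:**
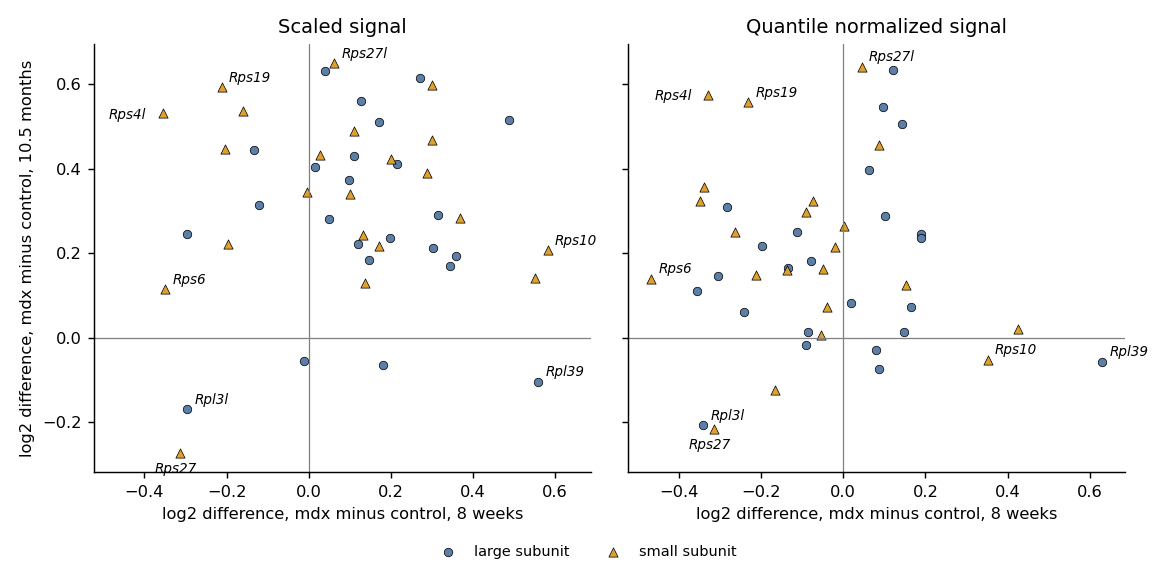
Log2 difference between mdx and control hearts at 8 weeks (x axis) and at 10.5 months (y axis) for 46 ribosomal protein genes, as scaled (left) and quantile normalized (right), with circles for large-subunit and triangles for small-subunit genes. Most points lie above the horizontal line on both panels, Rpl39 lies alone at the lower right, and the cloud moves to the left after quantile normalization.

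Age in control hearts went with lower values across the family, though no member passed the test. The median difference of 10.5 months against 8 weeks was -0.22 as scaled, with 6 of 46 genes above 0, and -0.11 after quantile normalization, with 15 above 0. All tested probe sets had medians of 0.01 and 0.00, and the bright ones -0.21 and -0.01. Without control replicate 2 at 8 weeks, an array of wide range, the scaled median was -0.13. None of the 85 probe sets was called, against 0.147% of all (22), and 4 (4.71%) had an unadjusted p below 0.05 against 12.2% of all. For 20 member probe sets the older controls lay below all young ones (23.5%, against 10.5% of all), and for 18 after quantile normalization (21.2% against 12%).

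The genes with the smallest p-values were Rpl3l, Rpsa and Rps25. Rpl3l gave 4104, 4660 and 4143.5 in young and 2795, 3043 and 3098.5 in older controls, with no overlap (-0.53 ± 0.15, adjusted p = 0.211). The difference kept its sign under all 25 alternatives, from -0.56 to -0.46, with adjusted p from 0.0648 to 0.557. Rpsa, a small-subunit protein also known as the laminin receptor precursor, gave 6873.5, 8943 and 6474 in young and 5229, 4751.5 and 4959 in older controls (-0.56 ± 0.21, adjusted p = 0.318). Rps25, which serves initiation at internal ribosome entry sites, gave -0.37 ± 0.17 (adjusted p = 0.414). The smallest p-values above 0 were those of Rpl12 at the base of the stalk (0.26 ± 0.19, adjusted p = 0.622), Rpl37 (0.26 ± 0.20, adjusted p = 0.642) and Rps10 (0.25 ± 0.22, adjusted p = 0.693).

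In mdx hearts Rpl39 was lower at 10.5 months than at 8 weeks, and this held on both scales. Its signals were 982, 942 and 900 in young and 505, 497 and 492 in older mdx hearts. The groups were far apart and each was tight. Rpl39 fell by 0.88 ± 0.14 on the log2 scale (adjusted p = 0.00291), to 0.545 of the young level, and by 0.94 after quantile normalization (adjusted p = 0.00222). It passed under all 25 alternatives, with adjusted p from 0.00205 to 0.0343. In controls, with 511, 516.5 and 588 in older hearts, the age difference was -0.21 ± 0.14 (adjusted p = 0.567).

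Of the 85 member probe sets 2 were called in this comparison, against 11.4% of all probe sets. The other was a dim probe set of Rpl41, which encodes the smallest protein of the ribosome. It gave signals of 140, 254 and 335 in young and 40.0, 71.5 and 44.6 in older mdx hearts. It passed the minimum mean of 100 only through the young mdx arrays and its older values lie below that minimum, so no size is given for the difference. The brighter probe sets of Rpl41 did not share this, at 0.01 ± 0.31 and 0.43 ± 0.29. After quantile normalization 5 member probe sets were called against 13.1% of all. The added genes were Rps15 (0.57, adjusted p = 0.0250), Rpl27 (0.46, adjusted p = 0.0481) and Rps6 (0.72, adjusted p = 0.0495), all higher with age. On that scale the other probe set of Rps15 overlapped, at 6262, 4959 and 5451 in young against 6337, 6192 and 8395 in older mdx hearts. The next brightest probe set of Rpl27 overlapped, at 1999, 1303 and 1545 in young against 1305, 1456 and 1843 in older mdx hearts. Its dimmest gave 905, 815 and 852 against 892.5, 1013.5 and 1543. The probe set of Rps6 is dim, and as scaled its difference was 0.17 without the arrays of wide range.

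The median over the family for age in mdx hearts was 0.01 as scaled (26 of 46 above 0) and 0.18 after quantile normalization (36 of 46). As scaled it turned to -0.15 without mdx replicate 3 at 10.5 months, to -0.14 without mdx replicate 3 at 8 weeks and to -0.01 without mdx replicate 2 at 8 weeks. It was 0.17 without mdx replicate 1 at 10.5 months, 0.06 without mdx replicate 2 at 10.5 months and 0.20 without mdx replicate 1 at 8 weeks. Besides Rpl39, Rps4l came nearest to the threshold. It gave 523, 377 and 428 in young and 728, 665 and 888 in older mdx hearts, with no overlap (0.74 ± 0.24, adjusted p = 0.0590), and it passed under 4 of 25 alternatives. Rps19 (0.60 ± 0.24, adjusted p = 0.111), Rps6 (0.57 ± 0.23, adjusted p = 0.110), Rpl3l (-0.40 ± 0.15, adjusted p = 0.103) and Rps20 (-0.46 ± 0.19, adjusted p = 0.125) followed.

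**Figure D4:**
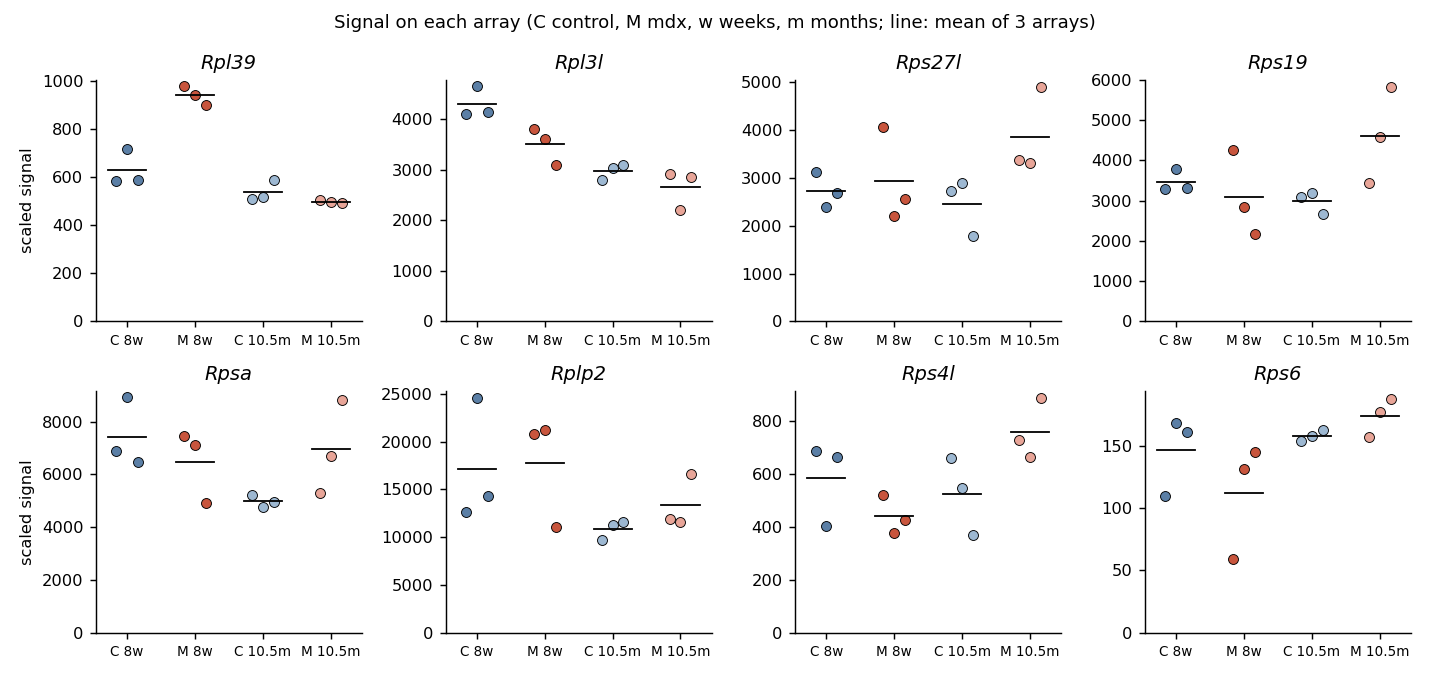
Scaled signal of 8 ribosomal protein genes on each of the 12 arrays, in control (C) and mdx (M) hearts at 8 weeks and 10.5 months, with each group's mean as a line. Rpl39 is high in the 3 young mdx hearts at 900 to 982, Rpl3l is highest in young controls, and in Rps27l and Rps19 the highest array is mdx replicate 3 at 10.5 months.

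The heart and muscle paralogue Rpl3l stood lower with age in both genotypes. Its signals were 3810, 3609 and 3098 in young mdx hearts and 2927, 2205 and 2863 in older ones, below all young controls; the highest older array of all, 3098.5 in a control, was level with the lowest young one, 3098.2 in an mdx heart. Rpl3, its canonical partner, was not read by a probe set of 1 gene, and their ratio is not analysed here. Rpl3l was lower in mdx at both ages (-0.30 and -0.17) where most members were higher at 10.5 months, but it passed no test of mdx against control.

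For 4 pairs of paralogues both genes were tested, and the change of their log2 difference was compared over arrays with an exact two-sided permutation test in 4 comparisons each. With 3 arrays against 3 the smallest p is 0.1. It was reached once, by Rps4l against Rps4x for age in mdx hearts, where the difference was higher by 1.06 in older hearts (exact permutation p = 0.1, Benjamini-Hochberg value over 16 tests 0.96). Rps4x itself gave -0.32 ± 0.18 there (adjusted p = 0.239). Rps27l against Rps27 gave a change of 0.92 for mdx at 10.5 months (exact permutation p = 0.3). For Rpl22l1 against Rpl22 and Rpl7l1 against Rpl7 the changes lay between -0.16 and 0.20.

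The acidic stalk, which recruits the elongation factors, was measured by Rplp0 and Rplp2. Rplp0 gave 0.34 ± 0.22 for mdx at 8 weeks and 0.17 ± 0.22 at 10.5 months (adjusted p = 0.450 and 0.892). Rplp2 gave 12608, 24533 and 14275 in young and 9715, 11238 and 11625 in older controls (-0.60 ± 0.28, adjusted p = 0.417), and the highest value is that of an array of wide range. Neither gene was called in any comparison. Rpl11, which binds Mdm2 when ribosome assembly is disturbed and so stabilises p53, gave 3931, 4056 and 4605 in the controls against 4577, 5458 and 8536 in mdx hearts at 10.5 months (0.51 ± 0.23, adjusted p = 0.666). Rpl5 and Rps27a had no probe set of 1 gene.

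Rpl13a and Rps18 are often used as reference genes in quantitative PCR. Rpl13a ranged from 7426.5 on mdx replicate 3 at 8 weeks to 14238 on mdx replicate 3 at 10.5 months. Its 4 tested probe sets lay between 0.37 and 0.57 for mdx at 10.5 months, each with all mdx arrays above all controls as scaled (adjusted p from 0.674 to 0.726). After quantile normalization the groups of its brightest probe set overlapped. Rps18 gave 0.35 ± 0.22 (adjusted p = 0.764) on its brightest probe set and 0.73 ± 0.25 (adjusted p = 0.610) on the next. Neither gene passed the test in any comparison on either scale.

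As scaled, Pearson's r of a gene with the family's median over the 12 arrays was above 0.5 for 34 of 46 genes and below 0 for 4, and after quantile normalization for 24 and 9. The arrays share the scaling, so this is a description. As scaled r was highest for Rpl38 (0.98) and Rpl37a (0.98) and lowest for Rpl12 (-0.39), Rps6 (-0.29) and Rps27 (-0.13), which are read by dim probe sets with mean signals of 143, 148 and 354. After quantile normalization the order was another, with Rps27 (-0.38), Rpl3l (-0.31) and Rpl39 (-0.30) lowest and Rps6 and Rpl12 at 0.28 and 0.06. For 19 genes with at least 2 tested probe sets, the 2 brightest had the same sign in 18 genes for mdx at 10.5 months, in 14 at 8 weeks and in 12 for age in mdx hearts. After quantile normalization these were 15, 12 and 11. The exception at 10.5 months as scaled was Rpl22, at 0.56 and -0.08. Of the 85 tested probe sets 38 are of the type whose probes also match other transcripts, and ribosomal protein genes have many processed pseudogenes, so values of single probe sets are uncertain to that extent. The 90 tested probe sets that the annotation gives to several genes, with a member among them, had medians of 0.33 as scaled and 0.20 after quantile normalization for mdx at 10.5 months.

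Genes around the ribosome were read from 4 lists. At 10.5 months none of 18 translation factors and other TOP mRNA genes, 32 ribosome assembly genes, 22 signalling genes and 23 initiation factors was called between mdx and control. Their medians were 0.21, 0.11, -0.15 and 0.07 as scaled, and 0.107, 0.155, -0.121 and 0.058 after quantile normalization. The smallest p-values were those of the chaperonin gene Cct2 (0.36 ± 0.17, adjusted p = 0.675), Gar1 of the H/ACA particles that modify ribosomal RNA (0.37 ± 0.13, adjusted p = 0.633), Tsc2, an inhibitor of mTOR signalling (-0.40 ± 0.17, adjusted p = 0.666), and Eif3k (0.39 ± 0.19, adjusted p = 0.691).

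At 8 weeks 2 of 22 signalling genes were called, against 2.30% of all probe sets. Rps6kb2, an S6 kinase, fell by 1.43 ± 0.20 (adjusted p = 0.00596) and Deptor, an inhibitor of mTOR, by 1.38 ± 0.23 (adjusted p = 0.0138). Rps6kb2 gave signals of 182.6, 228.4 and 193 in the controls against 41.7, 84.5 and 42.3 in mdx hearts, and Deptor 275.4, 238.8 and 148.8 in the controls against 60.5, 64.1 and 63.7 in mdx hearts. The groups of both genes were apart, and all 3 mdx values of each lie below the minimum mean of 100, where sizes are uncertain. Both are dim, with mean signals of 143 and 201. In the other 3 lists none was called as scaled, while Gar1 was after quantile normalization (-0.54, adjusted p = 0.0451). As scaled the smallest p-values were those of Naca (0.56 ± 0.18, adjusted p = 0.123), Gar1 (-0.52 ± 0.13, adjusted p = 0.0613) and Eif3b (-0.40 ± 0.14, adjusted p = 0.164).

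With age in mdx hearts, 4 of 32 assembly genes were called, all higher. Over all probe sets 11.4% were called in this comparison, and 5.45% were called higher. The 4 assembly genes were Gar1 (0.75 ± 0.13, adjusted p = 0.00648), its partners Nhp2 (0.68) and Nop10 (0.55), and Brix1 (0.67), which acts in large-subunit assembly. Of the 22 signalling genes 3, Deptor (1.66), Rps6kb2 (1.01) and the growth factor gene Igf1 (0.82), were called higher. Of the initiation factors Eif3b (0.54) was. The young mdx signals of Deptor (60.5, 64.1 and 63.7) and Rps6kb2 (41.7, 84.5 and 42.3) lie below the minimum mean. The sizes of both genes are therefore uncertain in comparisons that use those arrays, including the difference between the ages. Btf3 rose by 0.80 and Naca, its partner in the nascent polypeptide-associated complex, fell by 0.78 (adjusted p = 0.0136 and 0.0163). None of the 4 lists had a gene called for age in controls or for the difference between the ages. For age in controls the smallest p-value of each list was that of Fbl (-0.48 ± 0.16, adjusted p = 0.248), Eif4b (0.34 ± 0.15, adjusted p = 0.381), Igf1 (0.48 ± 0.21, adjusted p = 0.383) and Eif3d (-0.40 ± 0.18, adjusted p = 0.395). For the difference it was that of Gar1 (0.88 ± 0.19, adjusted p = 0.0901), Deptor (1.5 ± 0.33, adjusted p = 0.101), Btf3 (0.78 ± 0.24, adjusted p = 0.22) and Eif3b (0.58 ± 0.20, adjusted p = 0.263). The mitochondrial ribosomal proteins, a separate family of 74 tested genes, had scaled medians of -0.20 and 0.14 for mdx at 8 weeks and 10.5 months. After quantile normalization these medians were -0.129 and 0.129. At 10.5 months 62 of the 74 were higher in mdx hearts as scaled and 63 after quantile normalization. Their difference of the mdx effect between the ages had medians of 0.32 and 0.28, with 62 and 61 genes above 0. A higher level in older mdx hearts was thus not particular to the cytosolic family.

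Markers of heart muscle and of other cells moved with some of these comparisons, with sums given as scaled only. The 10 ventricular myocyte markers summed to 143264 to 171265 in controls and 166677 to 212188 in mdx hearts at 10.5 months. At 8 weeks they summed to 148414 to 289544 against 137485 to 417288. Bright sarcomere genes, Myl3, Myl2, Actc1, Tnni3 and Tnnt2 among them, made up most of these ventricular sums. At 10.5 months Myl2 and Mybpc3 were higher in mdx hearts with no overlap, while the groups of the other ventricular markers overlapped. Of those, Ryr2, Nkx2-5 and Gata4 had their lowest value of that age on mdx replicate 3. The summed signal of 7 fibroblast markers was 19282 to 19941 in controls and 20926 to 28299 in mdx hearts at 10.5 months, and 16483 to 19346 against 21317 to 24093 at 8 weeks. Dcn and Col3a1 made up most of these fibroblast sums. At 10.5 months Col3a1, Dpt and Lum were higher in mdx hearts with no overlap, while the groups overlapped for Dcn, Col1a1, Col1a2 and Pdgfra. At 8 weeks the groups overlapped for every single fibroblast marker. That of 9 macrophage and monocyte markers was 8458 to 11721 against 10297 to 15730 at 10.5 months, and 9328 to 12046 against 11321 to 13637 at 8 weeks. The 7 endothelial markers summed to 5689 to 6261 in controls and 4750 to 6034 in mdx hearts at 10.5 months, and to 6347 to 7500 against 5370 to 6738 at 8 weeks. The 4 atrial markers summed to 4193 to 6291 in controls and 11848 to 12577 in mdx hearts at 8 weeks, with no overlap, and to 4926 to 22195 against 11587 to 18087 at 10.5 months. Nppa, the brightest, made up most of these sums. At 8 weeks Myl7 and Sln were also higher in mdx hearts with no overlap, while the groups of Myl4 overlapped. The other atrial genes Myl4, Myl7 and Sln were highest in control replicates 1 and 2 at 10.5 months, where Sln gave 2242 and 1220 against 11.8 to 91.6 in mdx hearts of that age. Lymphocyte and erythroid lists had 3 of 7 and 2 of 3 measured genes above the minimum, with sums that overlapped between genotypes at 10.5 months, and Cd3e and Cd2 lay at mean signals of 33.4 and 28.1. The part of these cells in the ribosomal protein values was not tested.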

How the data were processed

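Signal intensity per probe set was deposited by the authors on a linear scale for 12 Affymetrix MOE430A arrays of heart; the software is not given in the sources used here. Each array was scaled to a 2% trimmed mean of 500, 32 was added before log2, and probe sets with a mean below 100 and 64 control sets were left out, which kept 14932. Differences were fitted with limma 3.58.1 in R 4.3.3 (lmFit and eBayes) over all 4 groups of 3 arrays, with Benjamini-Hochberg adjustment over all tested probe sets and a call at adjusted p below 0.05. The fit was tested on simulated data. Quantile normalization, other scalings, offsets, filters, blocks, array weights and each array left out were alternatives; quantile normalization combined with own groups only, or without mdx replicate 3 at 10.5 months, was added after seeing the data. The number of arrays limits the precision.

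The members and gene lists were chosen with earlier results of these data known. Genes named are called members, those with the 3 smallest p-values in each direction, paralogues, stalk proteins, reference genes, Rpsa, Rps6 and Rpl11, the 3 least like the family's median, and called or first-ranked genes of other lists; Dmd is the label check. Deptor signals, probe sets of Rpl41 other than the brightest, and the promoters shown were chosen after their values were seen. Replicate numbers were not used to pair arrays in the main fit, as the labels do not say whether same-numbered arrays are related.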

Additional observations from a re-analysis of the deposited data

Results flagged for a closer look

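Rpl39 was singled out because its mdx difference had opposite signs at the 2 ages. A change of sign in itself was not particular to it, but most changes ran from lower to higher, the reverse of Rpl39. As scaled, 13 of 46 genes were lower in mdx hearts at 8 weeks, and 41 of 46 were higher at 10.5 months. Only 5 of 46 were lower in mdx hearts at 10.5 months. At 10.5 months Rpl39 differed by only -0.10 and was not called. As scaled, all 3 mdx arrays of Rpl39 lay above all controls at 8 weeks and below all controls at 10.5 months. After quantile normalization the groups at 10.5 months overlapped, with mdx replicate 3 at 516.8 above controls at 498.7 and 504.3. The difference of the effects was -0.66 on the log2 scale, and the interaction did not pass the test (limma, adjusted p = 0.190, and 0.0842 to 0.357 over 25 alternatives).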

How the results depend on the processing

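The Rpl39 call at 8 weeks was lost, leaving 0 called ribosomal protein probe sets, when arrays were scaled to the median, with an offset of 16, a floor of 64, no filter, own groups only, the replicate block, the signal range block, array weights, or quantile normalization with own groups only; leaving out 1 array gave 0 to 1. Without mdx replicate 1 at 8 weeks the 1 called probe set was the dim one of Rpl41, not Rpl39. That set passed the minimum mean only through the young mdx arrays, so nothing is drawn from its call. Without the wide arrays the young mdx group held 1 array, so calls of that fit are not given. The family's median at 8 weeks was -0.16 without the wide arrays. For age in controls 1 probe set, of Rps18 (-0.84), was called with array weights. For age in mdx hearts 5 were called after quantile normalization, 5 with the signal range block, 4 with array weights and 1 without probe sets of the x type, and 2 to 4 when 1 array was left out. Rps6 at 8 weeks reversed to 0.10 without the wide arrays, and Rpl3l in the difference between ages to -0.039 with array weights; the cause was not tested. Same-numbered arrays had residual correlations over 0.1 in 2 of 6 pairs, and with the replicate block the family's median at 10.5 months stayed at 0.33. Dim probe sets limit Rps6, Rps27, Rps25 and Rpl12, and Rpl39 rests on 1 probe set.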
